A study of Mus musculus with 2 samples.

Results

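The transcripts described here are those of 10 genes at the output end of the Hippo pathway, Yap1, Wwtr1, Tead1, Tead2, Tead3, Tead4, Ajuba, Amotl2, Lats2 and Ankrd1. They were chosen by gene name from the 54532 genes of the deposited table, and each name matched 1 gene. RNA was sequenced from CT26, a cell line from a mouse colon carcinoma. The Oct4 and SOX2 culture carried mouse Oct4 and human SOX2 by lentivirus, and its title calls it dedifferentiated. The control culture, labelled wild type, had received lentivirus with the empty vector, and no batch is given for either. Both were grown in medium with serum and collected after 4 days, and the comparison asks which transcripts differ between them. There was 1 library per group, so no difference below has a check by replicates.

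The Hippo pathway is a kinase cascade that limits tissue growth. Its kinases LATS1 and LATS2 phosphorylate the coactivators YAP and TAZ, which are then held in the cytoplasm by 14-3-3 proteins or degraded. Unphosphorylated YAP and TAZ enter the nucleus and bind the TEAD factors, which recognise DNA and switch on genes such as Ctgf, Cyr61 and Ankrd1. In the intestine YAP is known for its part in regeneration after injury and in colon cancer. Most of this control acts on the proteins, which RNA sequencing does not measure.

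Transcripts of TEAD1, TEAD2 and TEAD3 stood at nearly the same level in both libraries. With Oct4 and SOX2 those of the coactivators were slightly higher and Tead4 slightly lower, while Ankrd1, Amotl2 and Ajuba were lower. All 10 genes reached 1 FPKM (sequenced fragments per kilobase of gene, adjusted for library depth) in at least 1 library. Their FPKM ratios, Oct4 and SOX2 over control, ran between 0.705 for Ankrd1 and 1.13 for Wwtr1. None was 2-fold higher or lower. Among all 12401 genes at 1 FPKM or more in at least 1 library, 2.42% were at least 2-fold higher and 1.85% at least 2-fold lower, by the ratio of FPKM + 1.

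TEAD factors bind the sequence GGAATG, which reads CATTCC on the other strand. The stretches around each match upstream of Ankrd1, Amotl2 and Ajuba are shown because these members were the lowest relative to the control. The match upstream of Cyr61 is shown because that target was higher, and those of Yap1 and Wwtr1 because they are the coactivator genes themselves. Each stretch has 30 bases from RefSeq on GRCm38.p6, written 5′ to 3′ on the strand where the motif reads GGAATG, with the motif in capitals. The printed strand follows the coordinates, and the position counts from the transcription start to the first base of the match along the gene.
Ankrd1 (chr19:36120037-36120066, minus strand, position -210): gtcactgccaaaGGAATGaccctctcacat
Ankrd1 (chr19:36119950-36119979, minus strand, position -123): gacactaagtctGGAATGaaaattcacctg
Amotl2 (chr9:102717727-102717756, minus strand, position -65): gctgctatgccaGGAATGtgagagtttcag
Ajuba (chr14:54577830-54577859, plus strand, position -186): gaggggcactgtGGAATGtatccatcaacg
Ajuba (chr14:54577808-54577837, plus strand, position -164): ttgtttacagttGGAATGcgcggaggggca
Cyr61 (chr3:145650071-145650100, plus strand, position -103): tcaaacatctcaGGAATGttggttggcgcg
Yap1 (chr9:8004720-8004749, minus strand, position -141): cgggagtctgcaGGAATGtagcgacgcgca
Wwtr1 (chr3:57576029-57576058, minus strand, position -136 and -170 from its 2 starts): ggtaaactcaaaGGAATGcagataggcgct

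The upstream windows of Ajuba and Cyr61 are given whole, as a lower and a higher gene whose windows hold no annotated exon of the gene. Both are written along the gene, 250 bases up to the base before the start, with the motif in capitals. Along Ajuba and Cyr61 the motif reads CATTCC.
Ajuba (chr14:54577662-54577911, minus strand): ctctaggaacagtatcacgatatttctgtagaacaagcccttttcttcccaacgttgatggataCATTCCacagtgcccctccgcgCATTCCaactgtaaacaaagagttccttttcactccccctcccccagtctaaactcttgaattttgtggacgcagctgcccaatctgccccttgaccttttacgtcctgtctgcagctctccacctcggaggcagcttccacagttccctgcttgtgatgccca
Cyr61 (chr3:145649986-145650235, minus strand): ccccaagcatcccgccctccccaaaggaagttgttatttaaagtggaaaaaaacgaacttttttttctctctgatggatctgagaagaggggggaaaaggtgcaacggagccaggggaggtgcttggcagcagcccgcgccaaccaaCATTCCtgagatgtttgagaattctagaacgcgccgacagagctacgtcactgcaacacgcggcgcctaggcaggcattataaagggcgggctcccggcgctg

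RefSeq gave windows for 8 of the 10 members, 12 windows in all because some genes have several starts. Tead1 and Tead4 are named only. At least 1 match lay in a window of Yap1, Wwtr1, Tead3, Ajuba, Amotl2 and Ankrd1, 6 of the 8. Of 27025 genes with windows of the same length, 14.4% had a match on either strand, and of 32851 windows 12.6% did and 1.02% had 2 or more. Ankrd1, Ajuba and a Tead3 start had 2 matches each in their window. The windows of Tead2 and Lats2 held none, although a match lay within the 50 bases after a Lats2 start. In GENCODE M21 all 250 bases of the Ankrd1 window and 136 of the Amotl2 window lie in exons of longer transcripts, so these stretches are upstream only of the RefSeq starts. The Tead3 window with 2 matches has 217 of its 250 bases in Tead3 exons. Windows of the other Tead3 starts, a Wwtr1 start and Tead2 also overlap exons of their own gene. Genes with the motif were found on both sides of the control level, with Cyr61 higher and Ankrd1 lower. Over measured protein-coding genes the median log2 ratio was -0.03 for the 1004 with a match and -0.01 for the 7177 without. This split covered only part of the 10276 measured protein-coding genes. At least 2-fold higher were 1.99% with a match and 1.27% without, and at least 2-fold lower 1.1% and 1.06%. These differences were not tested. A match is a stretch of letters and no evidence of binding.

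**Figure D1:**
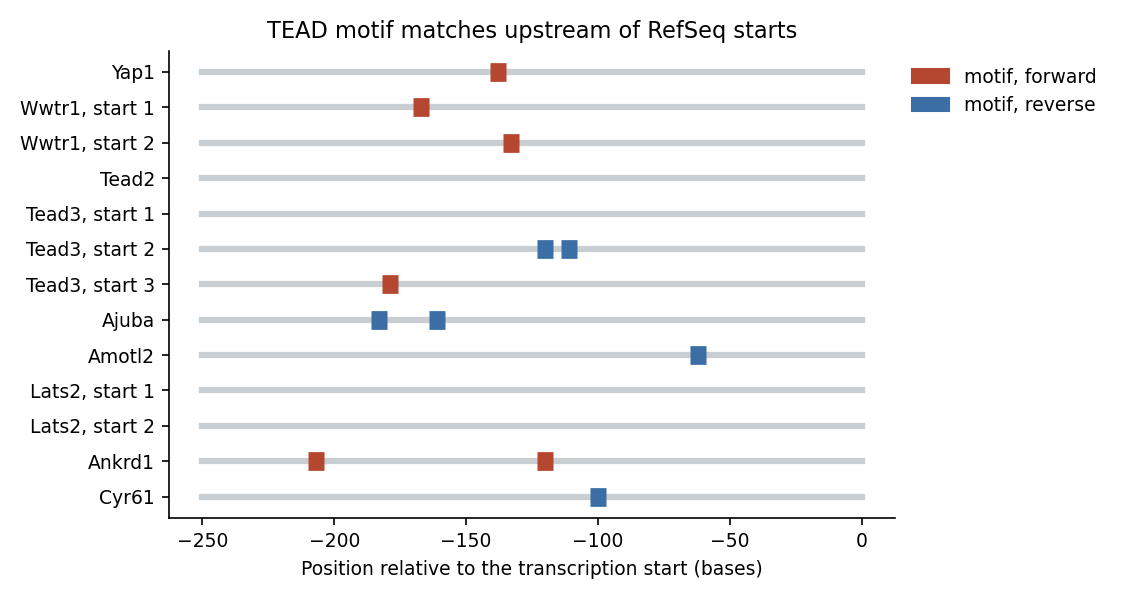
Positions of the TEAD motif in the 250 bases before each RefSeq start of the members and Cyr61, in bases relative to the start; red marks GGAATG and blue CATTCC along the gene. Ankrd1 has 2 matches in the forward sense and Ajuba 2 in the reverse sense, while the windows of Tead2 and Lats2 have none.

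The libraries were of like depth. Reads recovered from the FPKM steps summed to 31521115 in the Oct4 and SOX2 library and 32262408 in the control library. Pou5f1, the gene for Oct4, had 12406 reads in the Oct4 and SOX2 library and 0 in the control, and the vector's mouse Oct4 counts toward it. Mouse Sox2 was at 23.3 FPKM with Oct4 and SOX2 and 14.1 FPKM in the control, where it already had 929 reads. The vector carries the human gene, and whether its reads were counted toward mouse Sox2 was not tested. Of 8 colon epithelial markers, 2 reached 1 FPKM and differed in opposite directions. Krt20 was at 28.3 FPKM with Oct4 and SOX2 and 14.9 FPKM in the control, and Krt18 at 11.3 and 15.2 FPKM. The other 6 were below 1 FPKM in both, among them Epcam, with 2 reads in the Oct4 and SOX2 library and 1 in the control, and Cdh1, with 0 in both. Stromal or mesenchymal markers were abundant, with 5 of 6 measured and a summed level of 1390 FPKM with Oct4 and SOX2 and 941 FPKM in the control, and Vim gave 966 and 599 FPKM of these. Vim and Col1a2 were higher, while Pdgfrb, Col1a1 and Sparc were lower, with Pdgfrb at 4.93 FPKM with Oct4 and SOX2 and 14.1 FPKM in the control, and the median log2 ratio of the 5 was -0.25. The part of these markers in the differences below was not tested. All 8 leukocyte and endothelial markers stayed below 1 FPKM, with summed levels of 0.0229 and 0.0104 FPKM.

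Yap1, which encodes YAP, was at 16.6 FPKM with Oct4 and SOX2 and 15.8 FPKM in the control, from 4903 and 4657 reads. The ratio was 1.05 (exact 95% counting interval 1.01 to 1.10). Wwtr1, which encodes TAZ, was at 49.3 FPKM with Oct4 and SOX2 and 43.6 FPKM in the control, from 7510 and 6658 reads. Its ratio was 1.13 (1.09 to 1.17). Both coactivator transcripts were thus slightly higher, by less than many other genes: 27.3% of all measured genes had a log2 ratio as high as Wwtr1 or higher, and 38.8% as high as Yap1. The counting interval covers the sampling of reads and not the variation between cultures or the choice of scaling. It excluded 1 for 67.3% of all measured genes, 32.1% above and 35.2% below, and for 6 of the 10 members, 2 above and 4 below. In bulk RNA, fewer cells with a transcript and less transcript per cell cannot be told apart.

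Per length, TAZ transcripts outnumbered YAP transcripts in both libraries. The FPKM ratio of Wwtr1 to Yap1 was 2.97 (2.86 to 3.08) with Oct4 and SOX2 and 2.77 (2.67 to 2.88) in the control. Summed, the coactivators were at 65.9 FPKM with Oct4 and SOX2 and 59.4 FPKM in the control. For every member except Ankrd1 the deposited length equals the joined exons of all GENCODE M21 transcripts of the gene. It is 9257 bases for Yap1 and 4779 for Wwtr1, whereas the transcripts with the longest coding sequence in GENCODE M21 have 4171 and 4533 bases. Levels between genes, and so the size of the Wwtr1 to Yap1 ratio, depend on which length is used. The counting intervals do not cover that choice. Ratios between libraries do not depend on the length, given the same counted exons.

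**Figure D2:**
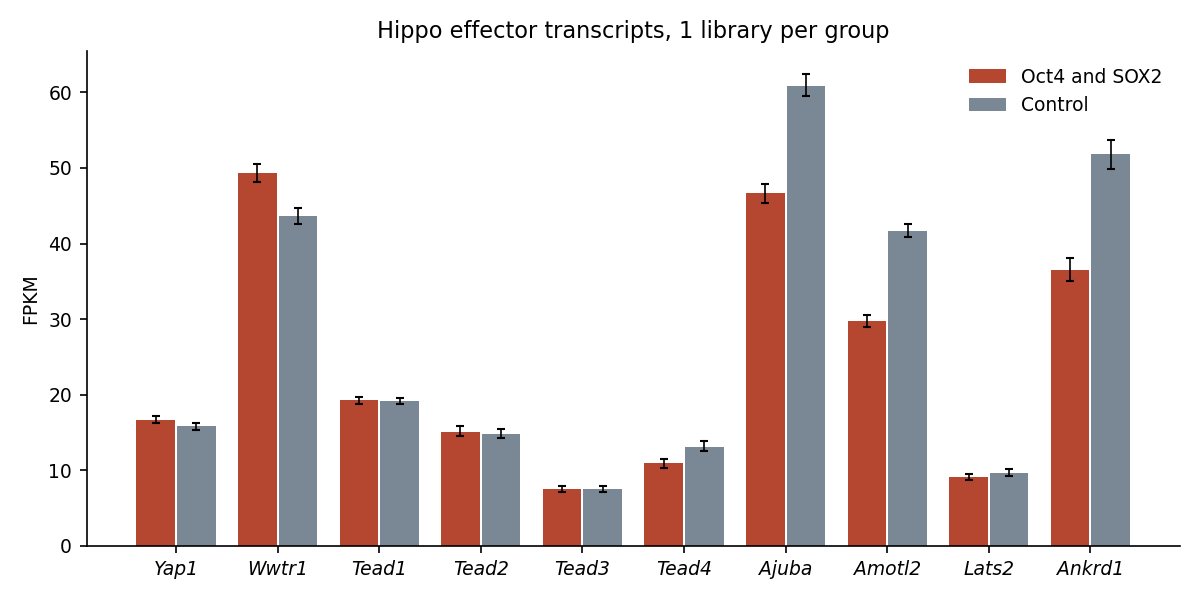
FPKM of the 10 members in the Oct4 and SOX2 library (red) and the control library (grey), 1 library each; error bars are exact 95% Poisson intervals for the recovered reads. Ajuba, Ankrd1 and Amotl2 are lower with Oct4 and SOX2, at 46.7, 36.5 and 29.7 FPKM against 60.9, 51.8 and 41.7 FPKM in the control.

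The TEAD genes encode closely related DNA-binding proteins. Tead1 was at 19.3 FPKM with Oct4 and SOX2 and 19.1 FPKM in the control, a ratio of 1.01 (0.978 to 1.04). Tead2, known for its expression in early mouse embryos, was at 15.1 and 14.8 FPKM, a ratio of 1.02 (0.964 to 1.08). Tead3 was at 7.47 FPKM with Oct4 and SOX2 and 7.51 FPKM in the control, a ratio of 0.995 (0.928 to 1.07). For these TEAD genes a difference beyond counting error was not detectable with the deposited scaling, and the intervals hold no difference as large as 1.25-fold. Rescaling without the 50 genes with most reads moved the log2 ratio of Tead1 from 0.01 to 0.05. By the same change Tead2 moved from 0.03 to 0.06 and Tead3 from -0.01 to 0.03. Whether an interval spans 1 can therefore depend on the scaling.

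Tead4, which is required for the trophectoderm of the mouse embryo, was the TEAD gene whose counting interval excluded 1. It was at 10.9 FPKM with Oct4 and SOX2 and 13.1 FPKM in the control, from 1249 and 1506 reads. It was 1.20-fold lower (1.12 to 1.30), and 22.8% of all measured genes had a log2 ratio as low or lower. This difference is small beside the spread of all genes, whose log2 ratios had an SD of 0.47 around a median of -0.01.

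All 4 TEAD genes were expressed in both libraries, and their order of level per length was Tead1, Tead2, Tead4 and Tead3 in each. Tead1 held 36.5% of the summed TEAD FPKM with Oct4 and SOX2 and 35.0% in the control. Tead2 held 28.7% and 27.2%, Tead3 14.2% and 13.8%, and Tead4 20.6% and 24.0%. The summed level was 52.8 FPKM with Oct4 and SOX2 and 54.5 FPKM in the control. The neighbours Tead2 and Tead4 lay closer in the control, where the ratio of Tead2 to Tead4 was 1.13 (1.06 to 1.21), than with Oct4 and SOX2, where it was 1.39 (1.30 to 1.49). Counted as reads and not per length, Tead1 took 61.7% and 60.6% of the TEAD reads, because its deposited length is 13570 bases against 3598 for Tead4. As reads Tead3 stood above Tead4, with 11.9% against 9.26% with Oct4 and SOX2 and 11.8% against 11.0% in the control. The size of each share and the order of Tead3 and Tead4 therefore depend on the length chosen. Tead4 had a smaller share with Oct4 and SOX2 than in the control on both scales.

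**Figure D3:**
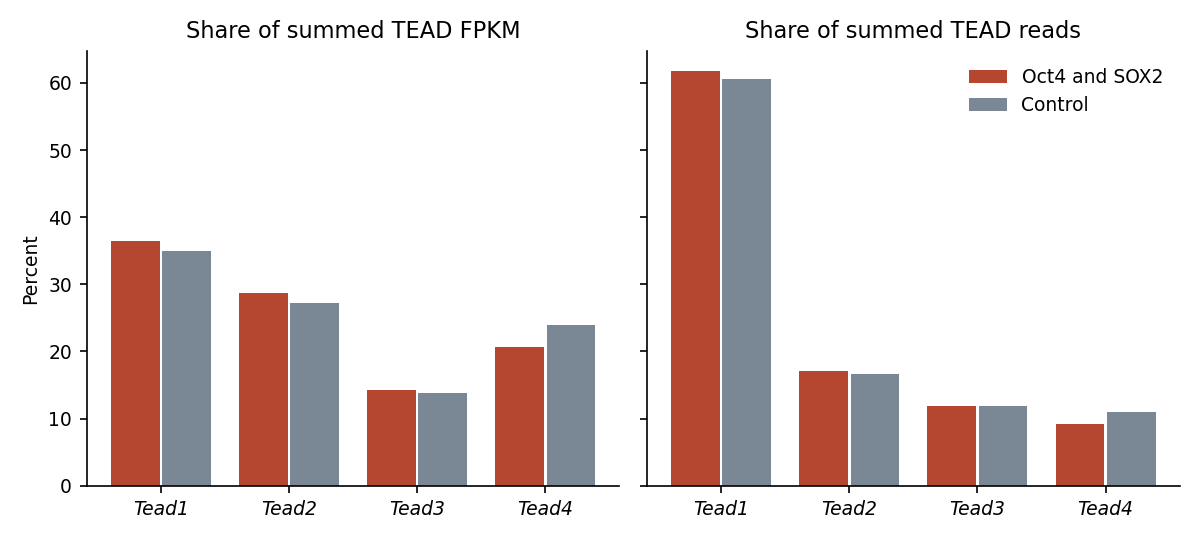
Percent of the summed TEAD level held by each TEAD gene in the Oct4 and SOX2 library (red) and the control library (grey), per length on the left and as recovered reads on the right. Tead1 holds the highest share on both scales, and Tead4 has the lower share with Oct4 and SOX2, 20.6% against 24.0% of FPKM.

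Ankrd1, which encodes a nuclear ankyrin repeat protein and is a widely used YAP and TAZ target, was the lowest member. It was at 36.5 FPKM with Oct4 and SOX2 and 51.8 FPKM in the control, from 2054 and 2918 reads. The gene was 1.42-fold lower (1.34 to 1.50), and 8.57% of all measured genes were as low or lower. Its upstream window holds the 2 motif matches shown above.

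Amotl2 encodes an angiomotin family protein that binds YAP at junctions and is itself a target of YAP. It was at 29.7 FPKM with Oct4 and SOX2 and 41.7 FPKM in the control, from 5950 and 8368 reads, 1.40-fold lower (1.36 to 1.45). Ajuba encodes a LIM protein that binds LATS kinases and restrains them. It was at 46.7 FPKM with Oct4 and SOX2 and 60.9 FPKM in the control, from 5423 and 7092 reads, 1.31-fold lower (1.26 to 1.35). A restraint on YAP and a restraint on the LATS kinases thus stood lower side by side.

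Lats2, the gene for a kinase that inactivates YAP and TAZ and also a target of theirs, differed less. It was at 9.08 FPKM with Oct4 and SOX2 and 9.64 FPKM in the control, 1.06-fold lower with an interval that spans 1 (0.999 to 1.13). The level of Lats1, its relative, was 10.9 FPKM with Oct4 and SOX2 and 11.2 FPKM in the control. Lats2 lay nearer to the control than the targets Ankrd1 and Amotl2, whose counting intervals do not overlap its own.

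Against a lower bar of 1.25-fold, chosen after the values were seen, 3 members were lower and none was higher. These were Ankrd1, Amotl2 and Ajuba, with log2 ratios of FPKM + 1 of -0.49, -0.48 and -0.38. Among all measured genes 16.9% were lower by that rule and 16.1% higher, and with 10 members the comparison of shares rests on few genes. The median log2 ratio was -0.04 over the 10 members and -0.01 over all measured genes, with 4 members above 0 and 6 below. Among all measured genes 51.7% lay below 0.

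On the genome, Yap1 (ENSMUSG00000053110) lies on chromosome 9 from 7931999 to 8004596 in GRCm38, and Amotl2 (ENSMUSG00000032531) on the same chromosome from 102716672 to 102733418. Wwtr1 (ENSMUSG00000027803) lies on chromosome 3 from 57455649 to 57575910. Ajuba (ENSMUSG00000022178) and Lats2 (ENSMUSG00000021959) are both on chromosome 14, from 54567472 to 54577558 and from 57689662 to 57758388. Ankrd1 (ENSMUSG00000024803) is on chromosome 19 from 36111965 to 36119844, and is the member whose coordinates differ in GENCODE M21. Its deposited length is 1765 bases, against 2886 for its joined exons in GENCODE M21. Whether reads in the further exon bases would alter its ratio was not tested. Tead1 (ENSMUSG00000055320) and Tead2 (ENSMUSG00000030796) are on chromosome 7 from 112679318 to 112906807 and from 45215753 to 45233644. Tead3 (ENSMUSG00000002249) is on chromosome 17 from 28331671 to 28350817, and Tead4 (ENSMUSG00000030353) on chromosome 6 from 128224288 to 128300823. Exons of Yap1, Tead2 and Lats2 overlap exons of another gene. The overlapping genes held few reads, 35 with Oct4 and SOX2 and 22 in the control for Cd37 opposite Tead2, 0 and 1 opposite Yap1, and 0 and 0 on the Lats2 strand.

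Target genes outside the members lay on both sides of the control. A published signature of 22 YAP and TAZ targets in tumours had 15 measured genes. By the ratio of FPKM + 1, 1 was at least 2-fold lower and none was 2-fold higher. In plain FPKM, Ctgf and Ccdc80 were more than 2-fold higher. On the log2 scale 10 lay below 0 and 5 above, with a median log2 ratio of -0.08. The signature includes Amotl2, Lats2 and Ankrd1. Outside the members 12 were measured, 7 below 0 and 5 above, with a median of -0.02. The share below 0 was 66.7% of the 15 and 58.3% of these 12, against 51.7% of all measured genes. By the 1.25-fold rule 3 of these 12 were lower and 3 higher, against 16.9% and 16.1% of all measured genes. The spread was wider than among all genes, with an SD of 0.58 over the 15 log2 ratios and 0.47 over all measured genes, and this difference in spread was not tested.

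Gadd45a, a growth-arrest gene also induced by p53, was the 2-fold lower target, at 38.9 FPKM with Oct4 and SOX2 and 93.0 FPKM in the control. The other targets named here were chosen after their values were seen. Ctgf and Cyr61 encode secreted matricellular proteins and are the targets most often measured as YAP readouts. Ctgf was at 17.5 FPKM with Oct4 and SOX2 and 8.32 FPKM in the control, 2.11-fold higher (1.93 to 2.30) in plain FPKM and just short of 2-fold with 1 FPKM added. Cyr61 was at 124 FPKM with Oct4 and SOX2 and 85.3 FPKM in the control, 1.45-fold higher (1.40 to 1.50). These stood opposite to Ankrd1. The level of Cyr61 over that of Ankrd1 was 3.38 with Oct4 and SOX2 and 1.65 in the control. That contrast follows from the single ratios of these genes and adds no separate result.

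Ccdc80, a matrix protein gene, was also higher, at 13.4 FPKM with Oct4 and SOX2 and 6.66 FPKM in the control. Its plain ratio was 2.02 (1.86 to 2.18), and it too fell short of 2-fold with 1 FPKM added. F3, which encodes tissue factor, was at 11.4 FPKM with Oct4 and SOX2 and 17.3 FPKM in the control, 1.52-fold lower (1.40 to 1.65). Axl, a receptor tyrosine kinase gene, and Myof, a membrane repair gene, lay near the control level, with ratios of 1.06 (1.05 to 1.08) and 0.989 (0.973 to 1.01). The signature thus held genes well above, well below and at the control level. Igfbp3, Fjx1 and Foxf2 had 0 reads in both libraries.

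**Figure D4:**
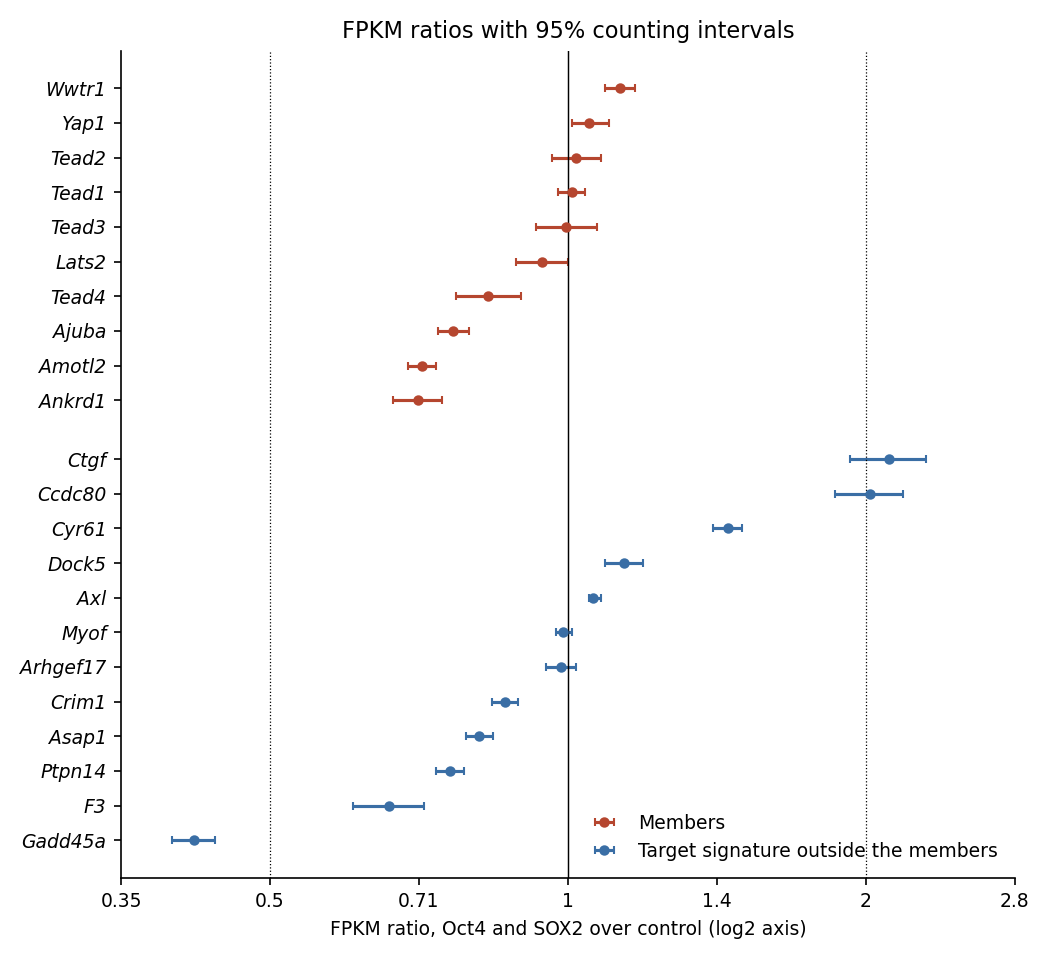
FPKM ratios of Oct4 and SOX2 over control on a log2 axis for the 10 members (red) and the 12 measured target signature genes outside them (blue), with exact 95% counting intervals; dotted lines mark 2-fold. Members lie between 0.705 and 1.13, and the other targets between 0.419 for Gadd45a and 2.11 for Ctgf.

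Angiomotins, which hold YAP at junctions, and AJUBA proteins had transcripts below the control level throughout the measured genes. Of 6 angiomotin and AJUBA family genes, 5 were measured, all with a log2 ratio below 0 and a counting interval below 1, and the median was -0.38. By the 1.25-fold rule 3 of the 5 were lower, against 16.9% of all measured genes, and intervals below 1 were found for 35.2% of these. They include the members Amotl2 and Ajuba, so they are not independent of them. Amotl1, which like Amotl2 binds YAP, was at 31.1 FPKM with Oct4 and SOX2 and 43.4 FPKM in the control, 1.40-fold lower (1.36 to 1.43). Amot was at 5.40 FPKM with Oct4 and SOX2 and 6.24 FPKM in the control, and Limd1, an AJUBA relative, at 12.1 and 13.9 FPKM. Wtip, the remaining AJUBA relative, had 0 reads in both.

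The kinase cassette showed no shared difference. Of 22 genes 21 were measured, none was 2-fold different, 9 lay above 0 and 12 below, and the median log2 ratio was -0.05. The share below 0 was 57.1%, against 51.7% of all measured genes. The kinases at its core stood close to the control, with Stk3, for MST2, at 9.12 FPKM with Oct4 and SOX2 and 8.32 FPKM in the control, and Stk4, for MST1, at 11.8 and 12.9 FPKM. The highest ratios were those of Map4k5 and Mink1, kinases that can act on LATS in parallel to MST, at 1.34 (1.24 to 1.45) and 1.29 (1.22 to 1.36). The lowest were those of Wwc1, for the scaffold KIBRA, at 0.646 (0.553 to 0.754), and Taok3, for a kinase related to activators of MST, at 0.755 (0.691 to 0.825). Wwc1 was at 1.73 FPKM with Oct4 and SOX2 and 2.68 FPKM in the control, the lowest of these levels, so its ratio rests on 274 and 425 reads.

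Genes that feed cell polarity and adhesion into the pathway lay on both sides of the control. Of 23 genes 12 were measured, none 2-fold different, with 7 above 0, 5 below and a median log2 ratio of 0.14. By comparison, 51.7% of all measured genes lay below 0. The SD of the 12 log2 ratios was 0.36, against 0.47 over all measured genes. Ctnna1, for the junction protein alpha-catenin, was the highest, at 226 FPKM with Oct4 and SOX2 and 147 FPKM in the control, a ratio of 1.53 (1.51 to 1.56). Scrib, a basolateral polarity gene, was at 38.7 FPKM with Oct4 and SOX2 and 29.3 FPKM in the control. The apical polarity genes Pard6a and Pard3 were the lowest, with ratios of 0.622 (0.532 to 0.725) and 0.737 (0.703 to 0.773). The epithelial inputs Cdh1 and Crb3 had 0 reads in both libraries.

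The 14-3-3 and degradation genes that act on phosphorylated YAP and TAZ were all 11 measured, with 10 below 0, a median log2 ratio of -0.07 and none 2-fold different. Of all measured genes 51.7% lay below 0, and rescaling without the 50 genes with most reads put this list's median at -0.03. Ywhag had the lowest log2 ratio of FPKM + 1, -0.42, at 143 FPKM with Oct4 and SOX2 and 193 FPKM in the control, a plain ratio of 0.744 (0.732 to 0.757). Sfn, the epithelial 14-3-3 gene, had the lower plain ratio, 0.673 (0.455 to 0.987), at 0.915 FPKM with Oct4 and SOX2 and 1.36 FPKM in the control, from 47 and 70 reads. Ywhah had the highest plain ratio, 1.19 (1.15 to 1.23), and Ywhae came next at 233 FPKM with Oct4 and SOX2 and 238 FPKM in the control. Among the VGLL cofactors that compete with YAP for TEADs, Vgll4 was the measured gene of 4, at 6.34 FPKM with Oct4 and SOX2 and 6.67 FPKM in the control. Vgll1 and Vgll2 had 0 reads in both libraries, and Vgll3 had 0 with Oct4 and SOX2 and 2 in the control.

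**Figure D5:**
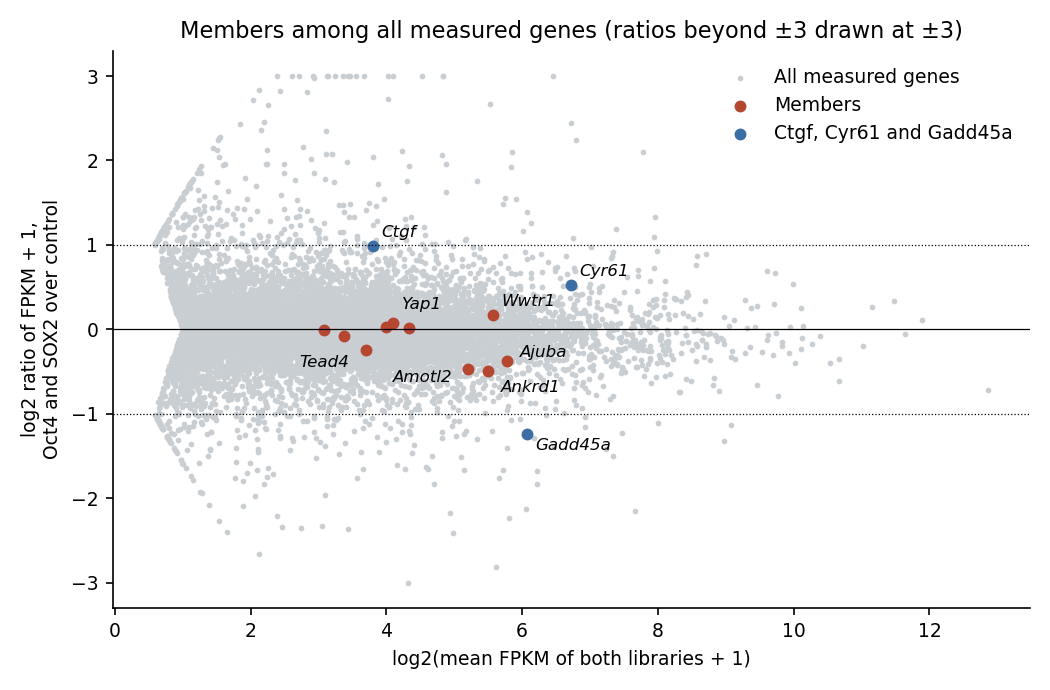
Log2 ratio of FPKM + 1, Oct4 and SOX2 over control, against the log2 mean level for the 12401 measured genes (grey), the 10 members (red) and 3 targets (blue); dotted lines mark 2-fold. The members lie between -0.49 and 0.17 inside the cloud of all genes, whose SD is 0.47.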

How the data were processed

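The authors deposited 1 table of FPKM values for 54532 genes in both libraries, with gene lengths and positions. CASAVA, HISAT2, featureCounts 1.5.0-p3 and the mouse build GRCm38 were used per the submitters' processing notes. Not given in the sources used here are the formula behind the FPKM values, the annotation release, the strand setting and the treatment of reads with several matches. In each library 100% of the products of FPKM and gene length were whole multiples of a single step, within 0.001 of a read, and this gave back the reads. The totals implied by the deposited FPKM were 1.01 and 0.989 times the summed reads in the Oct4 and SOX2 and the control library.

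A gene was called measured when either library had at least 1 FPKM of it. The log2 ratio is that of FPKM + 1, Oct4 and SOX2 over control, a scale that understates differences of low genes. Ratios without the added 1 are plain FPKM ratios, with exact conditional binomial (Clopper-Pearson) 95% counting intervals. PCR copies are not independent molecules, so these intervals cover counting error only. With 1 library per group no test across samples was possible and no p-value is given. The steps were tested on simulated data.

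The members and gene lists were chosen with earlier results of these data known. Named genes were the members and, from each pathway list, those at least 2-fold different or else the 2 highest and 2 lowest ratios. Stk3, Stk4, Lats1, the targets Ctgf, Cyr61, Ccdc80, F3, Axl and Myof, and genes with 0 to 2 reads were named in addition, after their values were seen. Upstream sequences are from RefSeq (GRCm38.p6), transcript structures from GENCODE M21. Alternatives covered pseudocounts, filters, scaling and gene types. Tables and intervals were made with scipy 1.17.1, pandas 2.3.3 and numpy 2.4.6 under Python 3.11.15, and figures with matplotlib 3.10.9.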

Additional observations from a re-analysis of the deposited data

How the results depend on the processing

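No member reached 2-fold under any of the 8 other settings of pseudocount, filter, scaling and gene type. Changes of filter and gene type could not move a member's ratio, since every member is protein-coding and above 5 FPKM in both libraries. For the members only the changes of pseudocount and scaling are therefore informative. The member median of -0.04 lay between -0.05 and -0.01 over them. Ankrd1 ranged between -0.50 and -0.45, Amotl2 between -0.49 and -0.43, Ajuba between -0.38 and -0.34 and Tead4 between -0.27 and -0.19 on the log2 scale. Tead3, near 0, changed sign under 3 of the 8, all of them changes of scaling. With the 1.25-fold rule, added after the data were seen, 3 members were lower. Against 300 genes 2-fold higher and 230 lower, the counts over all genes were 520 and 459 with a pseudocount of 0.1 FPKM, 75 and 56 with 5 FPKM, 145 and 121 with a filter of 5 FPKM, and 143 and 110 among protein-coding genes. Without the filter the medians moved to -0.02 for the target signature, -0.28 for the angiomotin and AJUBA families and 0.00 for the polarity and adhesion genes, since unmeasured genes near 0 enter. As reads and not per length, the TEAD shares with Oct4 and SOX2 were 61.7% for Tead1, 17.1% for Tead2, 11.9% for Tead3 and 9.26% for Tead4, and in the control 60.6%, 16.6%, 11.8% and 11.0%. No paired analysis was possible because each group has 1 library. Depth limits genes under 1 FPKM most, and the missing replicates limit every difference.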
